A study of Homo sapiens with 12 samples.

Results

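The C/D box small nucleolar RNAs (snoRNAs) were taken as every gene of the deposited expression table whose symbol starts with SNORD, 256 of 23619 genes. MOLT4, a long-established human line of T-cell acute lymphoblastic leukaemia (T-ALL), had been sampled after 6 h in 1 of 4 conditions with 3 libraries each. The conditions were 250 nM SNS-032, 250 nM THAL-SNS-032, 250 nM NVP-2, and 0.1% DMSO, the vehicle. SNS-032 blocks cyclin-dependent kinases that include CDK9, a kinase of transcription, NVP-2 is an inhibitor of CDK9, and THAL-SNS-032 joins SNS-032 by a linker to a thalidomide derivative that binds the ubiquitin ligase component cereblon. All groups come from the same line, the labels give no genetic change, and nothing in them says whether the 3 libraries of a condition were separate cultures. The p-values therefore cover no more than the library-to-library spread, which may be technical. In the DMSO libraries 5 of 5 T-lineage and T-ALL markers averaged 1 FPKM or more, and 0 of 6 markers of other cell types did.

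C/D box snoRNAs are short nucleolar RNAs named after the conserved C and D boxes near their ends. Bound by fibrillarin (FBL), NOP56, NOP58 and SNU13, most of them base-pair with ribosomal or spliceosomal RNA and direct the methylation of a ribose there, and a few act in the cleavage of the ribosomal RNA precursor. In human cells most are cut out of the introns of host genes, many of which encode ribosomal proteins or noncoding RNAs, and the mature RNAs carry no poly(A) tail. The libraries here were made from poly(A)-selected RNA.

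Sequences of 9 members on which the results below turn are given from the GENCODE v29 transcripts on GRCh38, 5′ to 3′ on the transcript strand. Capitals mark a C box core, the letters TGATGA within the first 20 bases, and a D box, the letters CTGA within the last 20 bases. The first set had values in every library: SNORD22 at chr11:62852910-62853035, minus strand, in SNHG1; SNORD17 at chr20:17962710-17962946, minus strand, in an intron of SNX5; and SNORD104 at chr17:64146083-64146152, plus strand.
SNORD22: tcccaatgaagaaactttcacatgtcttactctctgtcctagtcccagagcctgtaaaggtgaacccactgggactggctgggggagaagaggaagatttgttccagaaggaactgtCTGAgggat
SNORD17: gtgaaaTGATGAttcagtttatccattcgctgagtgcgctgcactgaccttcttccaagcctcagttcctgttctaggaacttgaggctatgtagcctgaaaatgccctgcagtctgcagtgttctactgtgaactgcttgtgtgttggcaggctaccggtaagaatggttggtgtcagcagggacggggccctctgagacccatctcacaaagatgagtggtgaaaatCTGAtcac
SNORD104: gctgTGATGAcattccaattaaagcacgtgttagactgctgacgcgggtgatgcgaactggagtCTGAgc
The second set changed between a value and the floor with whole groups: SNORD100 at chr6:132816802-132816877, plus strand, in an intron of RPS12; SNORD60 at chr16:2155023-2155105, minus strand; and SNORD45A at chr1:75787889-75787972, plus strand, in RABGGTB. SNORD22 and SNORD45A overlapped an exon of at least 1 annotated host transcript.
SNORD100: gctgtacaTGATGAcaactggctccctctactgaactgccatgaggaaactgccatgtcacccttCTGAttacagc
SNORD60: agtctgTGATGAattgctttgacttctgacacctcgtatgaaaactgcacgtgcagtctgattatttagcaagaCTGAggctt
SNORD45A: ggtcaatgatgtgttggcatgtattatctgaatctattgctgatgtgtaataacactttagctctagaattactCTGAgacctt
The third set shows closely alike SNORD116 copies of chromosome 15. They are SNORD116-15 at chr15:25081287-25081378, SNORD116-17 at chr15:25083588-25083679 and SNORD116-23 at chr15:25091786-25091877, all on the plus strand.
SNORD116-15: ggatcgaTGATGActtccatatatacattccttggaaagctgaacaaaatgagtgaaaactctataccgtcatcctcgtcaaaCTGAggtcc
SNORD116-17: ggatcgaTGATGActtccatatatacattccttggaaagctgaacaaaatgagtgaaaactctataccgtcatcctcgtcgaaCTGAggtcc
SNORD116-23: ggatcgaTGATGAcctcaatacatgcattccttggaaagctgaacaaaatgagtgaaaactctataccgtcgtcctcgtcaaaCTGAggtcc
Counted from 1 at the 5′ end, SNORD116-15 and SNORD116-17 differed by A81G alone, and SNORD116-15 and SNORD116-23 by T15C, C18A, T22C, A25G and A72G. Other copies were less alike. Over all pairs of the 16 copies of 92 nt, compared without gaps, mismatches had a median of 7 and reached 49. SNORD116-17 and SNORD116-19 had the same sequence, as had SNORD116-5 and SNORD116-7. Of the 256 members, 237 were found in GENCODE v29. The D box letters stood in the window in 97.0% of them and the C box letters in 72.6%, against 7.37% and 1.05% of 95 H/ACA box snoRNA (SNORA) transcripts. Only the transcript strand was searched, and the 2 windows lie at opposite ends and do not overlap. Both motifs stood in 70.3% of the 64 members with a value and in 71.7% of the 173 without one.

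Most C/D box snoRNAs had no measurable value. Expression is given in FPKM, fragments scaled by transcript length and library size, on a scale the authors set. Of the 3072 member values, 285 (9.277%) lay between 3.07 and 19103 FPKM, and the other 2787 lay between 0.0296 and 0.250 FPKM, called the floor here. A mean of 1 FPKM over the 12 libraries was passed by 67 of the 256 members, and these were exactly the members above the floor in any library. The other 189 were at the floor in all 12. Just inside that mean were SNORD111 at 3.73 FPKM, SNORD116-3 at 3.25 FPKM and SNORD23 at 3.22 FPKM, each above the floor in 1 library. Just outside were SNORD86 at 0.105 FPKM, and SNORD115-18 and SNORD115-17 at 0.0995 FPKM each.

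**Figure D1:**
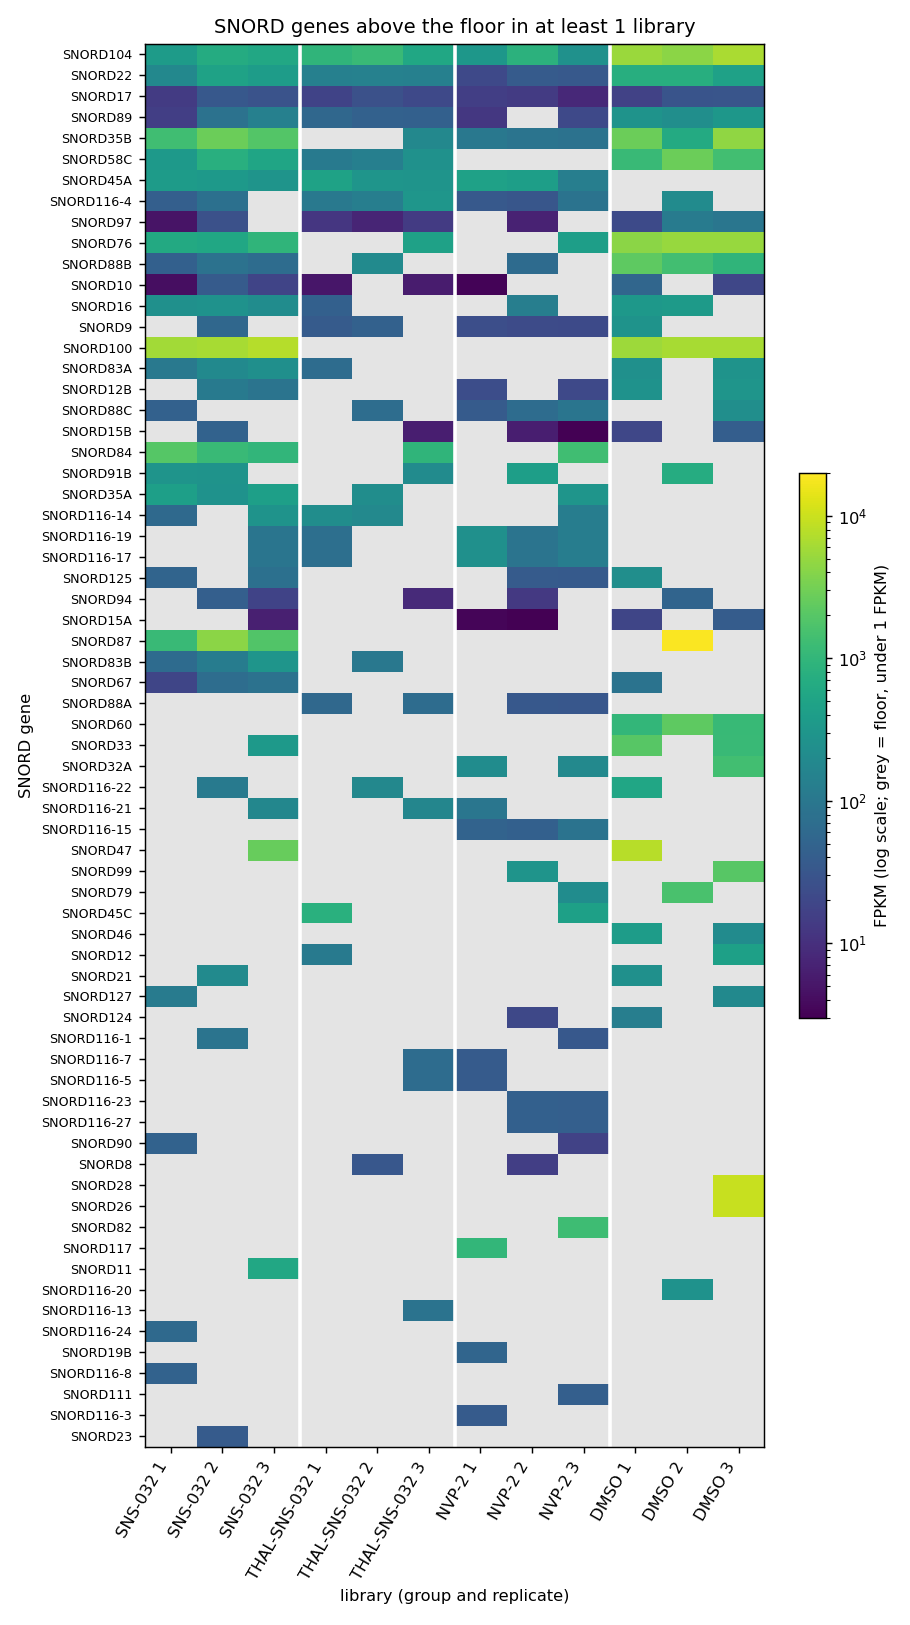
FPKM (colour, log scale) of the 67 SNORD genes above the floor in at least 1 library, in rows, across the 12 libraries in columns, grouped as SNS-032, THAL-SNS-032, NVP-2 and DMSO; grey marks a value at the floor, under 1 FPKM. Only SNORD104, SNORD22 and SNORD17 are coloured in all 12 libraries, and 29 rows are coloured in 1 or 2.

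Values above the floor were scattered over libraries. Only 3 members, SNORD104, SNORD22 and SNORD17, were above the floor in all 12, while 35 were in 3 to 11 libraries and 29 in 1 or 2. Members with a value in all 3 libraries numbered 18 with SNS-032, 8 with THAL-SNS-032, 11 with NVP-2 and 11 with DMSO. SNORD26 and SNORD28, both hosted by SNHG1 as SNORD22 is, show the extreme, with 9478 and 9485 FPKM in DMSO replicate 3 and the floor in the other 11 libraries. These names were chosen after their values were seen.

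The size of a value went with the length of the transcript. Annotated lengths ran from 64 to 237 nt (median 81). Among members of 64 to 79 nt, 10 of 109 were above the floor in any library, and the median of their above-floor values was 1175 FPKM. Members of 80 to 94 nt gave 28 of 97 and 150 FPKM, those of 95 to 119 nt 19 of 24 and 56.2 FPKM, and those of 120 to 240 nt 7 of 7 and 13.95 FPKM. Across 64 members, Spearman's rho between length and median above-floor value was -0.77, as a description across genes that share the same libraries and with lengths from GENCODE, since the authors' annotation is not stated. FPKM divides by length, so short transcripts carry uncertain values, and an order of FPKM between members of different length is not an order of abundance.

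**Figure D2:**
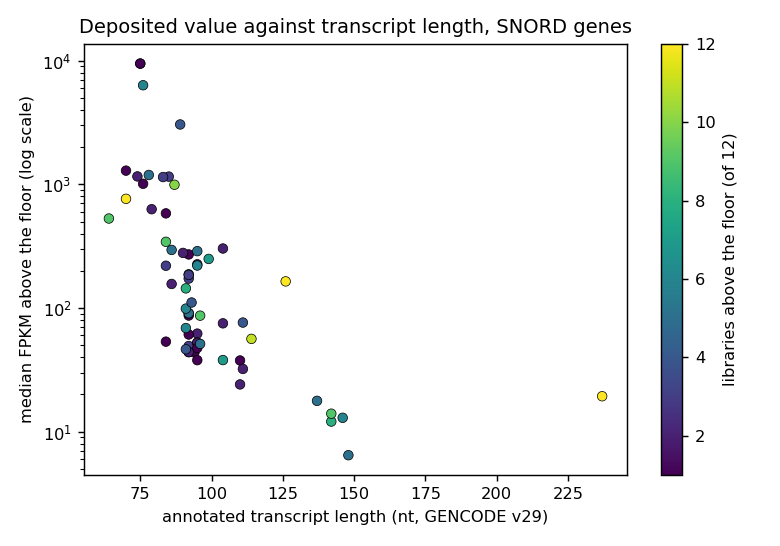
Each point is 1 of 64 SNORD genes, with annotated length in nt on the horizontal axis and the median of its above-floor FPKM on a log vertical axis; colour gives the number of libraries above the floor, of 12. Values fall with length, from a median of 1175 FPKM at 64 to 79 nt to 13.95 FPKM at 120 to 240 nt.

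Members of 1 length also took few distinct values within a library. In families of equal length, 20 ratios to the smallest above-floor value of the family in that library could be formed, and 17 lay within 0.1 of a whole number, the largest being 5. This smallest value differed by group. For the 92-nt copies of SNORD116 it lay between 61.0 and 113 FPKM with SNS-032, between 75.5 and 185 FPKM with THAL-SNS-032 and between 43.4 and 49.2 FPKM with NVP-2, against 271 and 555 FPKM in the 2 DMSO libraries that had one. All compound libraries thus showed SNORD116 values below the lowest that any DMSO library showed. The table holds no counts, so depth is unknown and no counting interval can be given.

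**Figure D3:**
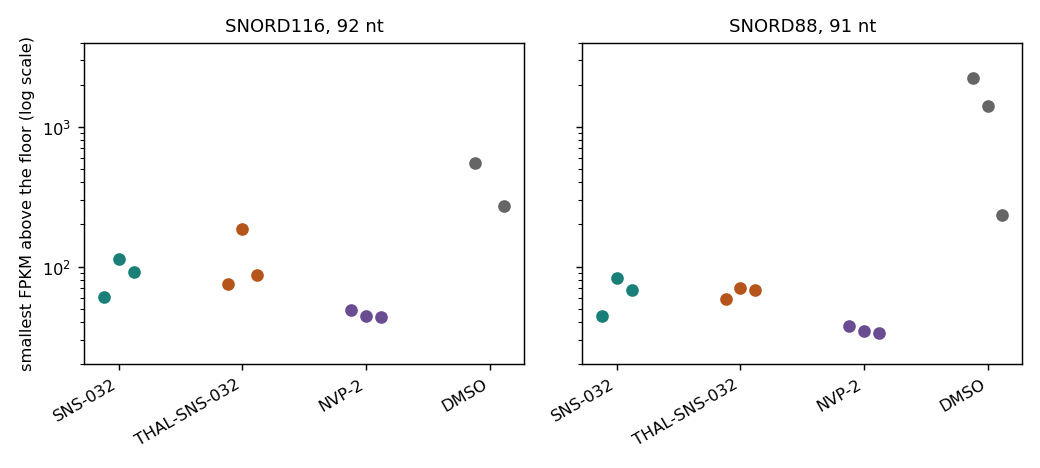
Smallest above-floor FPKM (log axis) per library among the 92-nt SNORD116 copies, left, and the 91-nt SNORD88 genes, right, with 1 point for each library that had a value, in the groups SNS-032, THAL-SNS-032, NVP-2 and DMSO. NVP-2 libraries sit lowest in both panels, at 43.4 to 49.2 and 33.3 to 37.3 FPKM, and DMSO libraries highest, at 271 to 555 and 235 to 2243 FPKM.

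The number of members above the floor was lowest with THAL-SNS-032. It was 28, 29 and 29 with SNS-032, 18, 16 and 20 with THAL-SNS-032 and 22, 25 and 29 with NVP-2, against 26, 18 and 25 with DMSO. The THAL-SNS-032 libraries lay below all SNS-032 libraries, the SNS-032 libraries lay above all DMSO libraries, and the THAL-SNS-032 and NVP-2 libraries overlapped DMSO. The 105 H/ACA box genes had 58, 62 and 58 above the floor with SNS-032, 31, 26 and 27 with THAL-SNS-032 and 39, 47 and 39 with NVP-2, against 45, 52 and 49 with DMSO. In the same libraries the median of the tested genes differed from the DMSO mean, on the log2(FPKM + 1) scale, by -2.61 to -1.87 with SNS-032, -2.32 to -2.14 with THAL-SNS-032 and -3.05 to -2.87 with NVP-2, while added ERCC spike-in RNA stayed within -0.03 and 0.04. SNS-032 replicate 1 was the lowest of its group on that median. In bulk RNA, fewer cells and less RNA per cell cannot be told apart.

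**Figure D4:**
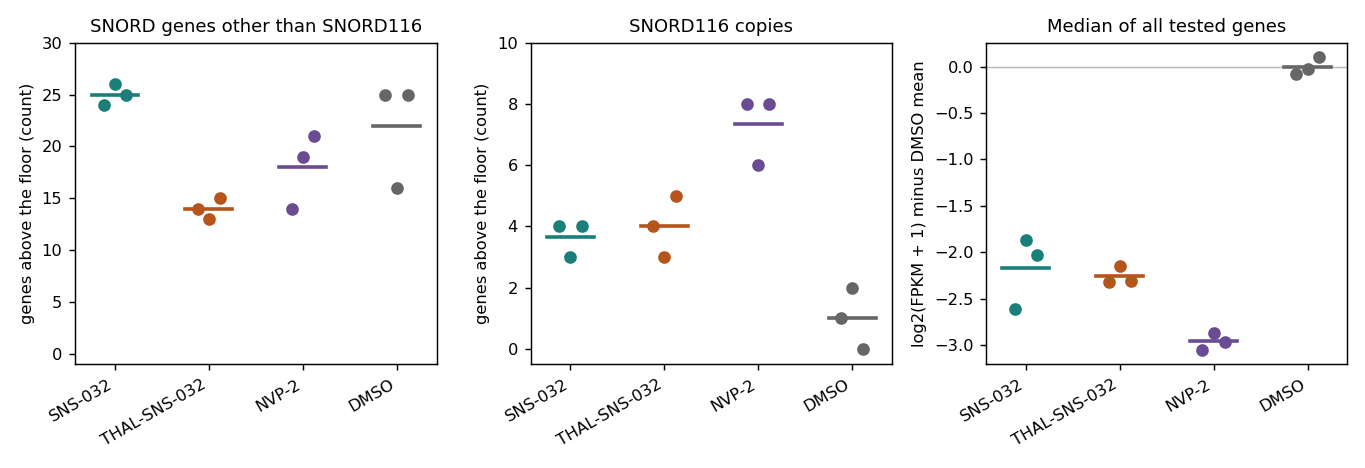
SNORD genes other than SNORD116 above the floor, left, SNORD116 copies above the floor, centre, and the median over tested genes of log2(FPKM + 1) minus the DMSO mean, right, with 1 point per library, bars for group means and groups in the order SNS-032, THAL-SNS-032, NVP-2 and DMSO. NVP-2 libraries have 6 to 8 SNORD116 copies, against 0 to 2 in DMSO, and the lowest gene medians, -3.05 to -2.87. Each copy is counted, also where 2 copies share all their values.

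On the deposited scale each compound had more members called lower than higher, a split that turned round when libraries were centred on their medians, as given below. The share of members called lower was far under that of the table as a whole. The 67 members and all other genes that passed a mean of 1 FPKM (11379 in all) were tested in 1 limma fit on log2(FPKM + 1), called at a Benjamini-Hochberg adjusted p under 0.05. SNS-032 against DMSO gave 6 members higher and 9 lower, where 1.54% of all tested genes were called higher and 94.6% lower. THAL-SNS-032 against DMSO gave 4 higher and 14 lower, against 1.37% and 94.8% of all tested genes. NVP-2 against DMSO gave 7 higher and 15 lower, against 0.448% and 97.1%. The other 52, 49 and 45 members were not called. No member called higher had a value in every library compared, and for some of them the groups overlapped. Of the rises, 4 of 6, 3 of 4 and 7 of 7 were against DMSO libraries all at the floor. Of the members called lower, 5 of 9, 5 of 14 and 4 of 15 had a value in every library compared. The 3 comparisons share the DMSO libraries. The median member difference was -0.03, -0.66 and -0.30, against -1.92, -1.90 and -2.54 over all tested genes, and the median standard error was 1.45 for members and 0.18 for all genes. When each library was instead centred on its own median, the members split 19 higher and 2 lower, 14 and 6, and 23 and 7 in the same order of comparisons. In that setting 5987, 6513 and 6788 of the 11379 tested genes were called higher and 3538, 3319 and 3198 lower. In both directions the share of members called was smaller than that of all tested genes.

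Between compounds, THAL-SNS-032 against SNS-032 gave 1 member higher and 12 lower, where 13.4% and 16.7% of all tested genes were called. THAL-SNS-032 against NVP-2 gave 6 higher and 6 lower, against 70.0% and 0.993%. SNS-032 against NVP-2 gave 15 higher and 5 lower, against 52.6% and 0.782%. With each library centred on its median, these became 1 and 12, 2 and 8, and 8 and 9. All tested genes then gave 5820 higher and 2627 lower, 3339 and 4329, and 2816 and 6711. Dose and time were the same for the 3 compounds, and the p-values are adjusted over genes within each of the 6 comparisons.

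SNORD22 (U22) is the member known for a part in processing of 18S ribosomal RNA, shown in Xenopus. It had 185, 482 and 391 FPKM with SNS-032, 137, 143 and 139 FPKM with THAL-SNS-032 and 21.1, 37.7 and 34.5 FPKM with NVP-2, against 738, 737 and 460 FPKM with DMSO. The 3 NVP-2 libraries were lowest, the THAL-SNS-032 libraries came next without overlap, and SNS-032 replicate 2 exceeded DMSO replicate 3. Means were 352 ± 152 FPKM with SNS-032, 140 ± 3.11 FPKM with THAL-SNS-032 and 31.1 ± 8.80 FPKM with NVP-2, against 645 ± 160 FPKM with DMSO (SD, n = 3 each).

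On the log2(FPKM + 1) scale SNORD22 fell with THAL-SNS-032 by 2.16 (SE 0.32, adjusted p = 9.36e-06), which turned to a difference of 0.094 with median-centred libraries, and with NVP-2 by 4.34 (SE 0.32, adjusted p = 2.27e-09). With SNS-032 it fell by 0.95 (SE 0.32, adjusted p = 0.0101), which was -0.54 (adjusted p = 0.0564) without SNS-032 replicate 1 and 1.23 with median-centred libraries. Between the related compounds, SNORD22 was lower with THAL-SNS-032 (difference from SNS-032 -1.22, SE 0.32, adjusted p = 0.00999). It was higher with THAL-SNS-032 than with NVP-2 by 2.17 (adjusted p = 8.58e-05) and higher with SNS-032 than with NVP-2 by 3.39 (adjusted p = 5.57e-07). Its host SNHG1, a noncoding RNA, averaged 137 ± 40.8 FPKM with SNS-032, 128 ± 9.28 FPKM with THAL-SNS-032 and 51.5 ± 6.99 FPKM with NVP-2, against 514 ± 51.6 FPKM with DMSO (SD, n = 3 each). Between THAL-SNS-032 and SNS-032 the host means differed by less than the SD of the SNS-032 libraries.

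SNORD104, a guide for 28S ribosomal RNA, fell with all 3 compounds. It had 381, 675 and 598 FPKM with SNS-032, 956, 1179 and 578 FPKM with THAL-SNS-032 and 319, 852 and 256 FPKM with NVP-2, against 5278, 4355 and 6446 FPKM with DMSO. Every compound library was below every DMSO library, and the compounds overlapped each other. The differences from DMSO were -3.30 with SNS-032 (adjusted p = 7.60e-07), -2.61 with THAL-SNS-032 (adjusted p = 1.04e-05) and -3.68 with NVP-2 (adjusted p = 1.65e-07), each with an SE of 0.39. With median-centred libraries the THAL-SNS-032 and NVP-2 differences, -0.35 and -0.72, were no longer called. THAL-SNS-032 against SNS-032 gave 0.69 (95% interval -0.13 to 1.52, adjusted p = 0.183), which leaves a difference of up to 1.52 possible. THAL-SNS-032 against NVP-2 gave 1.07 (adjusted p = 0.0225), a call lost without THAL-SNS-032 replicate 1 or 2 or NVP-2 replicate 1 or 3, with values of 0.73 to 1.00. It was also lost with median-centred libraries (0.37, adjusted p = 0.37) and with no filter (adjusted p = 0.0903).

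SNORD17, a long member that guides 28S ribosomal RNA, was the steadiest of the 3 on the deposited scale. It had 13.9, 33.6 and 28.4 FPKM with SNS-032, 17.4, 26.2 and 21.2 FPKM with THAL-SNS-032 and 15.3, 13.8 and 8.40 FPKM with NVP-2, against 17.0, 29.5 and 31.0 FPKM with DMSO. NVP-2 libraries lay below all DMSO and THAL-SNS-032 libraries, and the other groups overlapped. SNORD17 was lower with NVP-2 than with DMSO by a difference of -0.98 (SE 0.31, adjusted p = 0.00748). With median-centred libraries the median of all tested genes moved from -2.54 to 0.42 for NVP-2 against DMSO. The difference of SNORD17 moves by the same amount, which turns this fall into a rise. On the deposited scale SNS-032 against DMSO gave -0.07 (95% interval -0.74 to 0.60) and THAL-SNS-032 against DMSO -0.22 (95% interval -0.89 to 0.45), neither called. Centring moved the all-gene medians of these comparisons from -1.92 to 0.25 and from -1.90 to 0.36, so both differences turn to rises too. Its host SNX5, a sorting nexin, averaged 78.1 ± 21.7 FPKM with SNS-032, 76.7 ± 5.22 FPKM with THAL-SNS-032 and 30.8 ± 2.55 FPKM with NVP-2, against 256 ± 18.7 FPKM with DMSO (SD, n = 3 each). SNORD17 was higher with THAL-SNS-032 than with NVP-2 by 0.76 (adjusted p = 0.0416), a call lost without THAL-SNS-032 replicate 2 (0.62) or 3 (0.77) or NVP-2 replicate 3 (0.52). With median-centred libraries this difference was 0.06 (adjusted p = 0.833), and the call was also lost with equal ERCC medians (adjusted p = 0.0564), a pseudocount of 5 (adjusted p = 0.0576) or no filter (adjusted p = 0.11).

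SNORD100, a guide for 18S ribosomal RNA, separated SNS-032 from the other compounds. It had 5913, 6337 and 7404 FPKM with SNS-032 and was at the floor in all 3 THAL-SNS-032 and all 3 NVP-2 libraries, against 5491, 6332 and 6414 FPKM with DMSO. SNS-032 and DMSO overlapped, and their difference was 0.10 (95% interval -0.22 to 0.43, adjusted p = 0.503) on the deposited scale and 2.28, called, with median-centred libraries. The adjusted p was 1.53e-16 for THAL-SNS-032 against DMSO, 1.49e-16 for NVP-2 against DMSO, 1.36e-16 for THAL-SNS-032 against SNS-032 and 1.32e-16 for SNS-032 against NVP-2. SNORD100 passed the mean of 1 FPKM through its SNS-032 and DMSO libraries alone, so these p-values add no independent support. No fold is given against a group at the floor, here or below, since the floor values set its size.

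RPS12, the ribosomal protein gene whose intron holds SNORD100, had values in every library, at 4002, 6358 and 6893 FPKM with SNS-032, 5893, 7124 and 6560 FPKM with THAL-SNS-032 and 3646, 4337 and 3514 FPKM with NVP-2, against 7621, 9433 and 9229 FPKM with DMSO. With THAL-SNS-032 the host was thus as high as with SNS-032, while its snoRNA was at the floor. How fragments were shared out between snoRNA and host in the deposited values is not stated, and its part in the result was not tested.

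**Figure D5:**
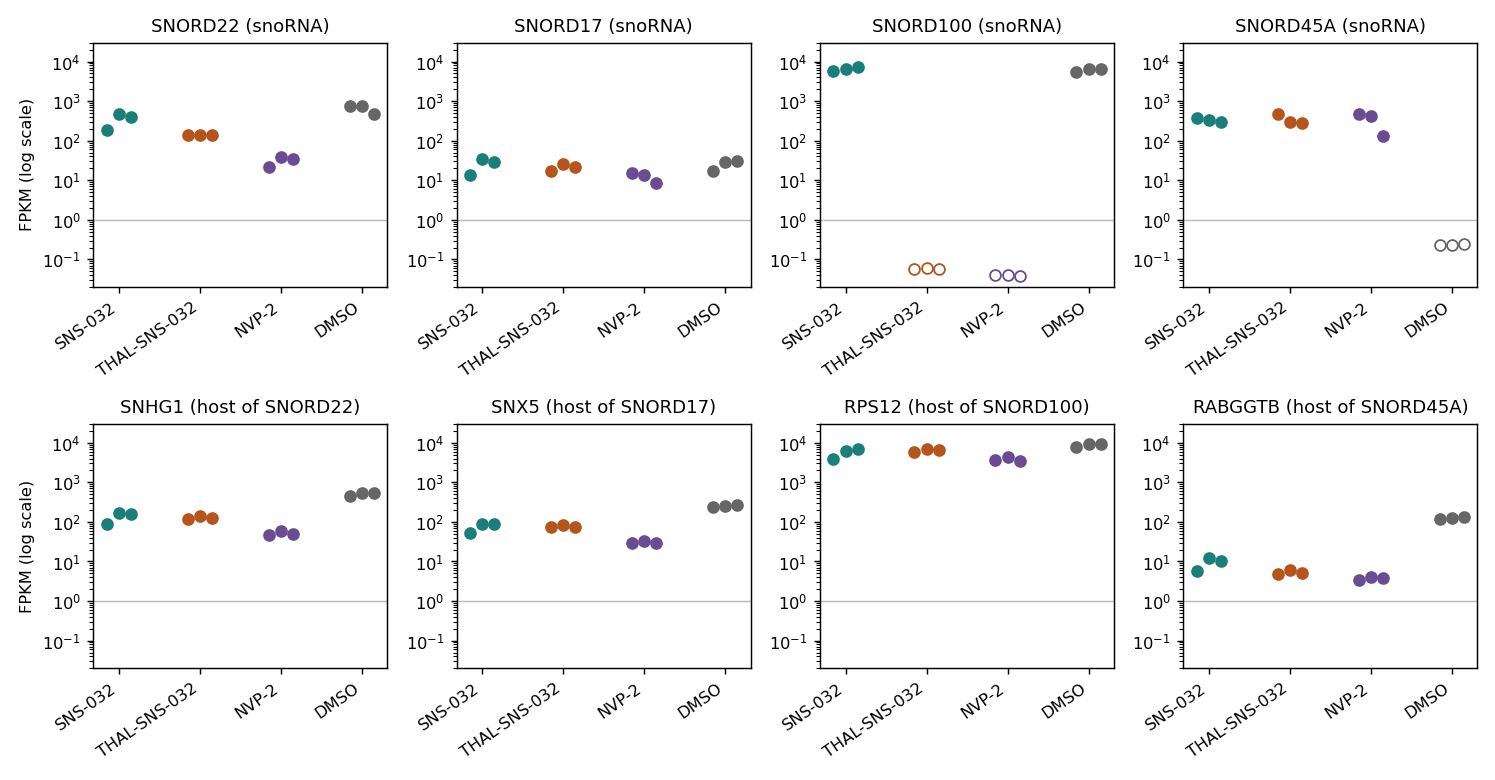
FPKM (log axis) of SNORD22, SNORD17, SNORD100 and SNORD45A, top row, and of their host genes SNHG1, SNX5, RPS12 and RABGGTB, bottom row, with 1 point per library and the groups SNS-032, THAL-SNS-032, NVP-2 and DMSO; open points are under 1 FPKM, which the grey line marks. SNORD100 is at the floor with THAL-SNS-032 and NVP-2 while RPS12 is at 3514 FPKM or more in every library, and SNORD45A is at the floor only with DMSO.

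SNORD45A, a guide for 18S ribosomal RNA, was above the floor with every compound and at the floor with DMSO. It had 376, 343 and 291 FPKM with SNS-032, 472, 292 and 282 FPKM with THAL-SNS-032 and 470, 420 and 128 FPKM with NVP-2, and was at the floor in all 3 DMSO libraries. No other member was above the floor in all 9 compound libraries and in no DMSO library. SNORD45A was called higher with each compound, with adjusted p-values of 5.80e-11 for SNS-032, 4.97e-11 for THAL-SNS-032 and 2.36e-11 for NVP-2. It passed the mean of 1 FPKM through its compound libraries alone, so these p-values add no independent support. The compounds did not differ detectably, with 0.02 for THAL-SNS-032 against SNS-032 (95% interval -0.78 to 0.81), 0.20 for THAL-SNS-032 against NVP-2 (95% interval -0.59 to 1.00) and 0.19 for SNS-032 against NVP-2 (95% interval -0.61 to 0.98). Its host RABGGTB, a subunit of Rab geranylgeranyl transferase, fell in the same libraries to 9.43 ± 3.34 FPKM with SNS-032, 5.37 ± 0.58 FPKM with THAL-SNS-032 and 3.79 ± 0.36 FPKM with NVP-2, against 125 ± 5.44 FPKM with DMSO (SD, n = 3 each). The smallest above-floor DMSO value of any member within 1 nt of its 84 nt was that of SNORD60, 1012 FPKM, above every SNORD45A value.

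SNORD60, a guide for 28S ribosomal RNA, was the reverse of SNORD45A. It was at the floor in all 9 compound libraries, against 1012, 2221 and 1145 FPKM with DMSO. The adjusted p was 4.52e-13 for SNS-032, 2.27e-13 for THAL-SNS-032 and 2.21e-13 for NVP-2. SNORD60 passed the mean of 1 FPKM through its DMSO libraries alone, so these p-values add no independent support. In each compound group another member within 1 nt of its length reached smaller values, down to 291 FPKM with SNS-032, 282 FPKM with THAL-SNS-032 and 53.4 FPKM with NVP-2, so values below those of SNORD60 in DMSO were measured there at that length.

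SNORD58C, a guide for 28S ribosomal RNA within RPL17, had a different range in each group. It had 342, 772 and 529 FPKM with SNS-032, 108, 134 and 256 FPKM with THAL-SNS-032 and the floor in all 3 NVP-2 libraries, against 1190, 2766 and 1390 FPKM with DMSO. No 2 groups overlapped. The difference from DMSO was -1.68 with SNS-032 (SE 0.36, adjusted p = 0.000378), which turned to 0.50 with median-centred libraries, and -3.42 with THAL-SNS-032 (SE 0.36, adjusted p = 2.41e-07). NVP-2 against DMSO gave an adjusted p of 3.86e-12, which adds no independent support, since NVP-2 was at the floor throughout. THAL-SNS-032 was lower than SNS-032 by a difference of -1.74 (SE 0.36, adjusted p = 0.00221). RPL17 averaged 772 ± 208 FPKM with SNS-032, 892 ± 78.6 FPKM with THAL-SNS-032 and 295 ± 34.8 FPKM with NVP-2, against 2208 ± 269 FPKM with DMSO (SD, n = 3 each).

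SNORD76, a 28S guide hosted by the noncoding RNA GAS5, had 621, 561 and 966 FPKM with SNS-032, 467 FPKM in THAL-SNS-032 replicate 3 alone and 420 FPKM in NVP-2 replicate 3 alone, against 4307, 5111 and 5118 FPKM with DMSO. All compound libraries were below DMSO. THAL-SNS-032 (adjusted p = 0.000897) and NVP-2 (adjusted p = 0.000797) were called against DMSO, and SNS-032 was not, at -2.79 (SE 2.19, adjusted p = 0.226). The pooled standard error of this gene rests on groups with 1 value and 2 floors, which the SNS-032 group did not have. The calls for THAL-SNS-032 against SNS-032 (adjusted p = 0.0382) and SNS-032 against NVP-2 (adjusted p = 0.0216) were each lost without single libraries. The first was lost without any 1 SNS-032 library or THAL-SNS-032 replicate 1 or 2, at adjusted p-values of 0.0584 to 0.152. The second was lost without SNS-032 replicate 2 or 3 or NVP-2 replicate 1 or 2, at adjusted p-values of 0.0541 to 0.0985. With no filter both were lost (adjusted p = 0.153 and 0.11), and with median-centred libraries the second was (adjusted p = 0.0519).

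SNORD89, in the RNF149 gene, had 15.1, 82.3 and 137 FPKM with SNS-032, 56.2, 46.5 and 44.4 FPKM with THAL-SNS-032 and 12.4 FPKM, the floor and 20.7 FPKM with NVP-2, against 275, 233 and 318 FPKM with DMSO. All 9 compound libraries were below DMSO. The difference from DMSO was -2.26 with SNS-032 (SE 0.89, adjusted p = 0.0241), -2.46 with THAL-SNS-032 (adjusted p = 0.0156) and -5.35 with NVP-2 (adjusted p = 3.03e-05). Without SNS-032 replicate 1, the SNS-032 difference was -1.35 (adjusted p = 0.189), and without DMSO replicate 3 it was -2.15 (adjusted p = 0.0522). With median-centred libraries it was -0.092 (adjusted p = 0.932), and the call was also lost with a pseudocount of 0.1 (adjusted p = 0.085) or no filter (adjusted p = 0.101). The same centring moved the median of all tested genes from -1.90 to 0.36 for THAL-SNS-032 and from -2.54 to 0.42 for NVP-2 against DMSO. The differences of SNORD89 move by the same amounts, which leaves little of its fall with THAL-SNS-032.

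SNORD88B, hosted by C19orf48, was called lower with each compound, for SNS-032 only under some settings. It had 44.6, 82.1 and 68.5 FPKM with SNS-032, 206 FPKM in THAL-SNS-032 replicate 2 alone and 65.6 FPKM in NVP-2 replicate 2 alone, against 2243, 1406 and 949 FPKM with DMSO. No compound library reached the lowest DMSO library. The adjusted p was 0.022 for SNS-032, 0.00048 for THAL-SNS-032 and 0.000242 for NVP-2, and the first was 0.087 without SNS-032 replicate 1, 0.277 with median-centred libraries, 0.0652 with a pseudocount of 0.1 and 0.0974 with no filter. C19orf48 averaged 7.84 ± 2.64 FPKM with SNS-032, 8.30 ± 0.80 FPKM with THAL-SNS-032 and 6.70 ± 1.02 FPKM with NVP-2, against 309 ± 39.1 FPKM with DMSO (SD, n = 3 each).

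SNORD97, a guide for the elongator methionine transfer RNA, had 4.83 and 26.8 FPKM and the floor with SNS-032, 11.98, 7.56 and 13.9 FPKM with THAL-SNS-032 and 6.995 FPKM in NVP-2 replicate 2 alone, against 22.0, 116 and 96.7 FPKM with DMSO. Its call for THAL-SNS-032 against NVP-2 (2.54, adjusted p = 0.0327) was lost without THAL-SNS-032 replicate 1 or 3, NVP-2 replicate 1 or 3 or SNS-032 replicate 1, at adjusted p-values of 0.0573 to 0.117, and with median-centred libraries (adjusted p = 0.157), a pseudocount of 5 (adjusted p = 0.0988) or no filter (adjusted p = 0.11). SNORD46, a guide for 28S ribosomal RNA, was at the floor in all 9 compound libraries and in DMSO replicate 2, against 395 and 210 FPKM in DMSO replicates 1 and 3. Its call for SNS-032 against DMSO was lost with median-centred libraries (adjusted p = 0.0852). SNORD46 too passed the mean of 1 FPKM through DMSO libraries alone. SNORD33, a guide for 18S ribosomal RNA in RPL13A, had 337 FPKM in SNS-032 replicate 3 and the floor in the other 8 compound libraries, against 2038 and 1155 FPKM in DMSO replicates 1 and 3. For THAL-SNS-032 against DMSO its adjusted p was 0.0103, and 0.0512 without DMSO replicate 1. With THAL-SNS-032 at the floor throughout, these p-values add no independent support. With median-centred libraries the difference was -4.77 (adjusted p = 0.113) for THAL-SNS-032 and -4.09 (adjusted p = 0.167) for NVP-2 against DMSO, neither called, and with no filter the first had an adjusted p of 0.0585.

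SNS-032 libraries held values for several members that no DMSO library did. SNORD35A, SNORD83B and SNORD84 were above the floor in all 3 SNS-032 libraries and in no DMSO library. SNORD35A, a 28S guide in RPL13A, had 430, 267 and 437 FPKM with SNS-032, 223 FPKM in 1 THAL-SNS-032 library and 295 FPKM in 1 NVP-2 library. SNORD84, in DDX39B, had 1934, 1190 and 994 FPKM with SNS-032, 961 FPKM in 1 THAL-SNS-032 library and 1322 FPKM in 1 NVP-2 library. The call of SNORD84 for THAL-SNS-032 against SNS-032 (adjusted p = 0.0485) was lost without any single library of SNS-032 or DMSO, or without THAL-SNS-032 replicate 1 or 2, at adjusted p-values of 0.0511 to 0.182, and with a pseudocount of 5 (adjusted p = 0.0625), no filter (adjusted p = 0.178) or limma without trend (adjusted p = 0.0544). SNORD83B, in RPL3, had 65.0, 121 and 294 FPKM with SNS-032, 101 FPKM in 1 THAL-SNS-032 library and none with NVP-2. Its adjusted p for SNS-032 against DMSO was 6.12e-05, which adds no independent support, since DMSO was at the floor.

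SNORD83A, also in RPL3, had 107, 196 and 244 FPKM with SNS-032, 67.0 FPKM in 1 THAL-SNS-032 library and the floor in all NVP-2 libraries, against 247 and 278 FPKM in 2 DMSO libraries. It was called higher with SNS-032 than with NVP-2 (adjusted p = 0.00266), a p-value against a group at the floor that adds no independent support. SNORD16, a guide for 18S ribosomal RNA in RPL4, had 249, 264 and 218 FPKM with SNS-032, 45.2 FPKM in 1 THAL-SNS-032 library and 132 FPKM in 1 NVP-2 library, against 332 and 360 FPKM in 2 DMSO libraries. Its call for THAL-SNS-032 against SNS-032 (adjusted p = 0.0457) was lost without any single SNS-032 library or THAL-SNS-032 replicate 2 or 3, at adjusted p-values of 0.0754 to 0.147, and with no filter (adjusted p = 0.172) or limma without trend (adjusted p = 0.0516).

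SNORD87, a guide for 28S ribosomal RNA in SNHG6, had values in 4 libraries. It had 1189, 4264 and 1836 FPKM with SNS-032 and the floor in all THAL-SNS-032 and NVP-2 libraries, against 19103 FPKM in DMSO replicate 2 and the floor in DMSO replicates 1 and 3. On the log2 scale it was called higher with SNS-032 than with DMSO (adjusted p = 0.0275), although DMSO replicate 2 held its highest value and the groups overlapped. This call was lost without SNS-032 replicate 1 or 2 or DMSO replicate 1 or 3, at adjusted p-values of 0.0679 to 0.143. A pseudocount of 5 (adjusted p = 0.0542) or no filter (adjusted p = 0.114) lost it too. SNORD87 was higher with SNS-032 than with NVP-2 (adjusted p = 0.00192) and THAL-SNS-032 against SNS-032 was called lower (adjusted p = 0.00443). THAL-SNS-032 and NVP-2 were at the floor, so these last p-values add no independent support.

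The imprinted clusters mostly lacked values. SNORD113 and SNORD114 (chromosome 14, 38 members) and SNORD115 (chromosome 15, 44 members) were at the floor in all 12 libraries. The 27 SNORD116 copies lie in the region of chromosome 15 that is linked to Prader-Willi syndrome. Of these, 17 were above the floor in some library, in 11 of 81 values with SNS-032, 12 of 81 with THAL-SNS-032 and 22 of 81 with NVP-2, against 3 of 81 with DMSO. Pairs of copies with the same values in all libraries count as 2 here and in the counts per library below. They are SNORD116-17 and SNORD116-19, SNORD116-5 and SNORD116-7, and SNORD116-23 and SNORD116-27, all at the floor in DMSO. The 147 other members had 75, 42 and 54 of 441 values above the floor with the compounds in that order, against 66 of 441 with DMSO.

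Per library, 4, 3 and 4 SNORD116 copies were above the floor with SNS-032, 4, 3 and 5 with THAL-SNS-032 and 8, 6 and 8 with NVP-2, against 1, 2 and 0 with DMSO. All compound libraries were above all DMSO libraries in this count. The smallest value a 92-nt copy showed in DMSO was 271 FPKM, as given above, and of the 9 compound libraries each had at least 1 copy below that. Its part in the count was not tested.

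SNORD116-15 was above the floor with NVP-2 only, at 49.2, 44.4 and 84.7 FPKM, and at the floor in the other 9 libraries (adjusted p = 3.77e-12 for NVP-2 against DMSO). It passed the mean of 1 FPKM through the NVP-2 libraries alone, so this p-value adds no independent support. SNORD116-17 and SNORD116-19, of identical sequence, were listed with the same values, 90.6 FPKM in SNS-032 replicate 3, 75.5 FPKM in THAL-SNS-032 replicate 1 and 246, 88.4 and 125 FPKM with NVP-2, and the floor in DMSO. Their adjusted p was 0.00062 for NVP-2 against DMSO, which adds no independent support, since DMSO was at the floor. For THAL-SNS-032 against NVP-2 it was 0.0123, and 0.057 or 0.0513 without THAL-SNS-032 replicate 2 or 3, and 0.0693 with no filter. SNORD116-23 and SNORD116-27 also shared their values, although, compared without gaps, their sequences differed at 46 of 92 positions. The 7 members called higher with NVP-2 thus hold 5 distinct sets of values.

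The rises against DMSO can be set beside the smallest DMSO values of like length. The compounds gave 17 calls of a rise in 14 distinct members. In 10 of the 17 the highest compound value lay below the smallest above-floor DMSO value of any member within 1 nt of that length, in 6 it did not, and in 1 no such DMSO value existed. Of 14 falls in which all libraries of the compound were at the floor, the lowest DMSO value lay above the smallest value of like length in that compound in 4, all of them SNORD60 or SNORD100. In 7 others at least 1 DMSO library was itself at the floor, so that no such comparison could be made, and 3 had no value to compare. The part of these limits in the calls was not tested.

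On the deposited scale the host genes fell almost throughout, and with median-centred libraries most were instead called higher, as were most of all tested genes. A host was found in the table for 167 members, with 65 distinct hosts, of which 64 were tested. Against DMSO, SNS-032 lowered 63 of these, THAL-SNS-032 lowered 62 and NVP-2 lowered 64, and 0 were higher, with median differences of -1.74, -1.44 and -2.56. With median-centred libraries 42, 42 and 37 were called higher and 14, 19 and 21 lower. In that setting 5987, 6513 and 6788 of all 11379 tested genes were called higher and 3538, 3319 and 3198 lower. On the deposited scale the fit called 94.6%, 94.8% and 97.1% of all tested genes lower. Of the members called higher that had a tested host, 6 of 6, 2 of 2 and 2 of 2 had a host called lower. Of the members called lower, 7 of 7, 11 of 12 and 13 of 13 did. The DMSO level of the host had a median of 508 FPKM for 48 members with a value and 225 FPKM for 119 members without one, as a description over members that share hosts.

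Transcripts of the proteins that assemble with C/D box snoRNAs were also lower on the deposited scale. Of the core proteins, 4 of 4 tested were lower with each compound, with median differences of -2.01 for SNS-032, -2.22 for THAL-SNS-032 and -3.23 for NVP-2. FBL, the methyltransferase, averaged 276 ± 72.9 FPKM with SNS-032, 308 ± 24.6 FPKM with THAL-SNS-032 and 138 ± 14.04 FPKM with NVP-2, against 816 ± 99.5 FPKM with DMSO (SD, n = 3 each). NOP58, a scaffold of the particle, averaged 50.2 ± 14.5 FPKM with SNS-032, 47.3 ± 5.48 FPKM with THAL-SNS-032 and 26.5 ± 1.88 FPKM with NVP-2, against 284 ± 20.8 FPKM with DMSO (SD, n = 3 each). All 11 tested assembly factors, 9 genes of snoRNA maturation and turnover and 5 H/ACA core proteins were lower with each compound too, near the 94.6%, 94.8% and 97.1% of all tested genes called lower. With median-centred libraries the assembly factors split 1 higher and 8 lower, 4 and 7, and 2 and 9 for SNS-032, for THAL-SNS-032 and for NVP-2, the maturation and turnover genes 1 and 6, 3 and 5, and 3 and 4, and the H/ACA core proteins 1 and 3 each time. The counts of all tested genes in that setting are given with the hosts above. In the same setting 2, 2 and 1 of the 4 C/D core proteins were called higher and 1, 2 and 3 lower against DMSO, in the same order of compounds. All 4 were higher in THAL-SNS-032 than in NVP-2 libraries and in SNS-032 than in NVP-2 libraries on the deposited scale. The limma fit called 0 of the 4 for THAL-SNS-032 against SNS-032, where NOP56 alone had an unadjusted p under 0.05 and an adjusted p of 0.0534. For reference, MYC, a transcription factor gene, had 100 to 170 FPKM with SNS-032, 12.9 to 17.0 FPKM with THAL-SNS-032 and 6.21 to 7.57 FPKM with NVP-2, against 300 to 352 FPKM with DMSO.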

How the data were processed

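RNA of MOLT4 cells was measured in 12 libraries in 4 groups of 3. Per the labels' protocols, ERCC spike-in RNA was added at lysis, the libraries were stranded and made after poly(A) selection. The submitters' processing notes name HISAT, Cufflinks 2.0.0 and hg19; the annotation is not given in the sources used here. Values as deposited by the authors are FPKM on their own scale, with no counts, so depth is unknown.

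After removal of 92 ERCC entries and 2 repeated symbols, 23619 genes were left. The 11379 genes that averaged at least 1 FPKM entered 1 limma 3.58.1 fit (R 4.3.3, with trend, 8 residual degrees of freedom) on log2(FPKM + 1), giving 6 two-sided comparisons with Benjamini-Hochberg adjustment over all tested genes. Differences on this scale understate changes of low genes. No count test was used. Members entered the fit only through libraries where they were above the floor. A p-value against a group at the floor therefore adds no independent support. The fit was tested on simulated data with normal noise and changes placed only in genes of small spread. That test does not cover members that change between a value and the floor. A value under 1 FPKM is called the floor; the cut lies in the gap between 0.250 and 3.07 FPKM.

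Named members are the 5 with the highest mean, SNORD22, the 6 largest rises and falls per comparison among called members whose groups do not overlap (floor values included), and the 3 on each side of a mean of 1 FPKM; 1 of them is not reported here. The members, lists and rules were chosen with earlier results of these data known. Lengths, hosts and sequences come from GENCODE v29 (GRCh38), with 14 hosts from a hand-made list; an unlisted host was not analysed here. Alternatives were pseudocounts of 0.1 and 5, no filter, a mean of 5 FPKM, median-centred libraries, equal ERCC medians, limma without trend, a replicate block, and leaving out each library.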

Additional observations from a re-analysis of the deposited data

How the results depend on the processing

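Counts of members called were compared with the main counts given in the report, and called the same within 1.5 times. With median-centred libraries they became 19 higher and 2 lower for SNS-032 against DMSO, 14 and 6 for THAL-SNS-032 against DMSO, 23 and 7 for NVP-2 against DMSO, 2 higher for THAL-SNS-032 against NVP-2, and 8 higher and 9 lower for SNS-032 against NVP-2; centring put the median of all tested genes at 0.25, 0.36 and 0.42 for the 3 compounds against DMSO. The counts of all tested genes in that setting are given in the report. With equal ERCC medians, 11 members were higher for SNS-032 and 12 for NVP-2 against DMSO. Without a filter on low values, 1 was higher for THAL-SNS-032 against DMSO, 203 were lower for NVP-2 against DMSO, where genes at the floor in every library are tested on floor values that differ between groups, 0 were higher and 6 lower for THAL-SNS-032 against SNS-032, 3 and 3 for THAL-SNS-032 against NVP-2, and 7 and 3 for SNS-032 against NVP-2. A pseudocount of 5 left 0 higher for THAL-SNS-032 against SNS-032. Apart from the floor values just named, the cause was not tested.

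Leaving out single libraries gave 4 to 9 higher and 5 to 18 lower for SNS-032 against DMSO, 2 to 4 and 13 to 22 for THAL-SNS-032 against DMSO, 6 to 11 and 14 to 22 for NVP-2 against DMSO, 0 to 2 and 7 to 12 for THAL-SNS-032 against SNS-032, 4 to 6 and 4 to 12 for THAL-SNS-032 against NVP-2, and 11 to 16 and 3 to 11 for SNS-032 against NVP-2. Of 70 differences of named members, 60 were called. Direction turned in 4, all with median-centred libraries, at 1.23 for SNORD22 and 0.50 for SNORD58C with SNS-032 against DMSO, 0.094 for SNORD22 with THAL-SNS-032 against DMSO, and -0.68 for SNORD100 with THAL-SNS-032 against NVP-2, where both groups are at the floor. Calls were lost, with the same direction, in 14 of the 70 with median-centred libraries, 16 with no filter, 5 with a pseudocount of 5, 2 with a pseudocount of 0.1, 2 without trend and 1 with equal ERCC medians, and in 50 cases on leaving out single libraries, where 785 stayed the same. Calls were gained in 1 with median-centred libraries, 2 with a pseudocount of 0.1, 2 with equal ERCC medians and 5 on leaving out single libraries. A mean of 5 FPKM changed none of the 70.

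The correlation of deviations showed no clear pairing of libraries by replicate number, lying between -0.15 and 0.17 over 18 same-numbered pairs. A replicate block gave 6 higher and 9 lower for SNS-032 against DMSO, 3 and 14 for THAL-SNS-032, 7 and 15 for NVP-2, 1 and 12 for THAL-SNS-032 against SNS-032, 6 and 7 for THAL-SNS-032 against NVP-2, and 16 and 6 for SNS-032 against NVP-2, and changed none of the 70. Over all tested genes the block raised the calls for THAL-SNS-032 against SNS-032 from 1526 higher and 1900 lower to 2307 and 2133. For SNS-032 against NVP-2 they went from 5989 and 89 to 6693 and 123. Whether same-numbered libraries were handled together was not tested. Without counts, no limit of detection can be set for a value at the floor.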
